A study of Mus musculus with 120 samples.

Results

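The strain label names only B6, chromosome 18 and MSM. B6-Chr18MSM is read from it as a consomic (chromosome substitution) mouse: its chromosome 18 comes from MSM and the rest of its genome from B6 (C57BL/6). Its livers were set against those of B6, which carries no MSM chromosome. MSM is the inbred strain that donated the chromosome and derives from Japanese wild mice. The members were the arrays whose strain label is B6-Chr18MSM or B6, 4 arrays of each, 8 of the 120 arrays in the series. The animal numbers in the titles sort them into 2 males per strain with 2 arrays each, 4 of 60 males, and the arrays of a male were averaged. All mice were males aged 10 weeks, fasted for 4 h before the liver was taken. The labels name no C or T part for this strain, as they do for strains that carry part of a chromosome, and no typing of the mice was used here. As further references, 27 other consomic strains (54 males) carried no MSM chromosome 18, and MSM itself (2 males) carried all MSM chromosomes. That arrays with 1 animal number share a male is not written in the labels, so n = 2 rests on this reading. The p-values measure only the spread between males of 1 strain, estimated over the 60 males of all 30 strains.

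A substituted chromosome can change a transcript in cis, when the regulatory or transcribed sequence of the gene itself differs, or in trans, when a product of the chromosome acts on genes elsewhere. Mouse chromosome 18 holds genes with well known work in the liver: Ttr (transthyretin, a plasma carrier of thyroxine and retinol-binding protein), Npc1 (lysosomal cholesterol export), Fech (the last step of heme synthesis), Atp8b1 (a canalicular phospholipid flippase), Nr3c1 (the glucocorticoid receptor) and several Smad genes of the TGF-beta pathway. It also holds the desmosomal cadherins and the protocadherin clusters. Because liver was measured in bulk, fewer cells of a type and less RNA per cell cannot be told apart.

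The values are the deposited log2 signals of Affymetrix Mouse Genome 430 2.0 arrays, 1 probe set per gene, for 11949 genes in all and 280 on chromosome 18 (459 chromosome 18 genes had a probe set, and 179 fell below a filter on dim probe sets). The SD between males of 1 strain was small on this scale and varied widely from gene to gene (median 5.95e-05, 10th to 90th percentile 1.02e-05 to 0.000806). How the values were summarised is not given in the sources used here, so a difference is not read as a fold change and its size is not set against that of another gene. Each difference is therefore also given in residual SDs of the gene, the SD between males of 1 strain in a limma fit of all 30 strains. With 2 males against 2, this SD is also the standard error (SE) of the difference. Levels of single males are given as deviations, in the same SDs, from the mean of the 27 other consomic strains. Called genes are those with a limma p below 0.05 after Benjamini-Hochberg adjustment over all 11949 genes. All 12 hepatocyte markers lay above the median of all values in every male, 11 of them above the 95th percentile. The medians of the 8 arrays ran from 7.4166 to 7.41669 and their 75th percentiles from 7.98539 to 7.98603. Both ranges exceed the median SD of 5.95e-05, so the arrays were not level on the scale of these differences. B6-Chr18MSM male 1 held the highest or lowest value of the 60 males in 410 genes and male 2 in 187, against a median of 249.5 over all males.

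The share of called genes in the comparison with B6 was higher on chromosome 18 than elsewhere. Of all tested genes 0.519% were called (62 genes), 0.393% higher and 0.126% lower, and away from chromosome 18 the share was 0.386% (45 of 11669). On chromosome 18 it was 6.07% (17 of 280), with 6 genes higher and 11 lower in B6-Chr18MSM. Both shares depended on the scaling of the arrays: quantile normalization called 7 genes on chromosome 18 (2.5%) and 7 elsewhere, and centring each array on its median 10 (3.57%) and 16. All 7 and all 10 were among the 17. At an unadjusted p below 0.05 the shares were 28.9% on chromosome 18 (81 genes) and 8.65% elsewhere (1009 genes). The median absolute difference was 1.07 SDs on chromosome 18 and 0.73 SDs elsewhere. The chromosome leaned to lower values in B6-Chr18MSM, with a median of −0.40 SDs and 40.0% positive differences, beside 0.07 SDs and 52.5% elsewhere. In each of the 17 called genes both B6-Chr18MSM males lay beyond both B6 males and all 4 arrays beyond all 4 B6 arrays, which held for 47.2% and 15.7% of all tested genes. The calls were made on these same males, so the selection largely fixes this separation. It held in 45 and 44 of the 45 genes called elsewhere. In 14 of the 17 both B6-Chr18MSM males also lay beyond all 54 males of the other consomic strains, as they did in 0.536% of all genes. Cfap53, Mbp, Gm4951, Dsg2, Gnpda1, Ercc3 and Reep5 remained called whichever of the 4 males was left out. The other 10 lost the call without at least 1 of them, and each such fit called 9 genes of the chromosome. With the fit restricted to the 4 males, which leaves 2 residual degrees of freedom, limma called 0 genes of chromosome 18 (71 at an unadjusted p below 0.05), so every call rests on the spread shared over 30 strains.

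The genes higher in B6-Chr18MSM were Cfap53, Mbp, Gnpda1, Ercc3, Reep5 and Slc4a9. Cfap53, which encodes a protein of cilia and flagella, had deposited levels of 8.207 and 8.212 in the B6 males, 8.252 and 8.270 in the B6-Chr18MSM males and 8.299 and 8.289 in the MSM males. The B6-Chr18MSM males thus lay between B6 and MSM, at 11.8 and 17.1 SDs above the mean of the other strains, whose highest male was at 1.25 SDs. Cfap53 rose by 0.0517 ± 0.00352 (SE, n = 2 and 2; limma adjusted p = 2.65e-11). Mbp encodes myelin basic protein, the main cytoplasmic protein of compact myelin. Its B6 males were at −1.54 and −0.60 SDs, its B6-Chr18MSM males at 12.02 and 11.51 SDs and its MSM males at 12.4 and 10.7 SDs. For Mbp the consomic and the MSM males overlapped, and the rise over B6 was 0.000673 ± 5.24e-05 (limma adjusted p = 4.44e-10).

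Gnpda1, the isomerase that turns glucosamine-6-phosphate into fructose-6-phosphate, stood at −0.0097 and 0.32 SDs in B6, 7.78 and 7.30 SDs in B6-Chr18MSM and 11.6 and 9.51 SDs in MSM. It rose by 0.00651 ± 0.000882 (limma adjusted p = 6.69e-05). Ercc3, the XPB helicase of the transcription and repair factor TFIIH, stood at 1.04 and 0.57 SDs in B6, 9.14 and 6.92 SDs in B6-Chr18MSM and 13.8 and 12.1 SDs in MSM. It rose by 0.00142 ± 0.000196 (limma adjusted p = 8.55e-05). In both genes the 3 strains formed 3 separate levels, with B6-Chr18MSM in the middle. Reep5, a protein that shapes the tubules of the endoplasmic reticulum, had levels of 9.017 and 9.018 in B6, 9.053 and 9.050 in B6-Chr18MSM and 9.081 and 9.074 in MSM. Its rise was 0.0339 ± 0.00493 (6.87 SDs, limma adjusted p = 0.000195). Slc4a9, an anion transporter of the bicarbonate family, was at −0.34 and 0.09 SDs in B6, 5.09 and 3.43 SDs in B6-Chr18MSM and only 0.96 and 2.63 SDs in MSM. It rose by 0.000116 ± 2.64e-05 (limma adjusted p = 0.0369), and the adjusted p lay between 0.0645 and 0.527 when 1 of the males was left out.

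The largest fall among the 11 lower genes, in SDs, was that of Gm4951, a predicted member of the interferon-inducible GTPase family. Its levels were 8.622 and 8.618 in the B6 males, 8.525 and 8.520 in the B6-Chr18MSM males and 8.508 and 8.502 in the MSM males. Both consomic males lay beyond the lowest of the 54 other males (−2.92 SDs), at −11.2 and −11.9 SDs, and Gm4951 fell by 0.0976 ± 0.00833 (limma adjusted p = 3.02e-09). The next tested gene along the chromosome, its family member Iigp1, differed by 0.59 SDs from B6 (limma adjusted p = 0.953). Dsg2, the desmoglein that joins the desmosomes of simple epithelia and heart muscle, had levels of 8.427 and 8.424 in B6, 8.346 and 8.324 in B6-Chr18MSM and 8.317 and 8.308 in MSM. It fell by 0.0901 ± 0.0102 (limma adjusted p = 2.01e-06). Dsc2, a desmosomal partner and the tested gene before it in order, differed by −2.27 SDs (limma adjusted p = 0.47).

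Slc66a2, a membrane protein with PQ loops, was at −0.16 and 0.04 SDs in B6, −5.46 and −6.69 SDs in B6-Chr18MSM and −8.97 and −9.12 SDs in MSM. It fell by 0.0272 ± 0.00452 (limma adjusted p = 0.00149, and 0.0566 without B6-Chr18MSM male 2). The males of the 3 strains did not overlap. Grpel2 is a nucleotide exchange factor of the mitochondrial Hsp70, itself encoded by Hspa9 on the same chromosome. Grpel2 stood at 0.63 and 0.00 SDs in B6, −4.95 and −4.94 SDs in B6-Chr18MSM and −4.03 and −2.50 SDs in MSM, and fell by 0.0117 ± 0.00223 (limma adjusted p = 0.00699, and 0.0608 to 0.195 with 1 male left out). Hspa9 differed by −0.09 SDs (limma adjusted p = 0.995). Hdhd2, a hydrolase of the haloacid dehalogenase family, was at −5.43 and −5.40 SDs in the consomic males and fell by 0.000822 ± 0.000138 (limma adjusted p = 0.00162). The adjusted p of Hdhd2 was 0.161 without B6 male 1 and 0.0502 without B6-Chr18MSM male 1. Wdr36, a nucleolar protein of ribosomal RNA processing, was at 1.21 and 1.92 SDs in B6 and −3.65 and −4.50 SDs in B6-Chr18MSM. It fell by 5.64 SDs (limma adjusted p = 0.00324, 0.103 without B6 male 2 and 0.0724 without B6-Chr18MSM male 2), a call that ended and turned sign after quantile normalization.

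The remaining 5 lower genes passed narrowly, with adjusted p between 0.0409 and 0.0488 (limma), and each lost its call whichever male was left out. They were Mppe1, which trims the glycan of GPI anchors (−4.33 SDs), Fam210a, a protein of mitochondria (−4.30 SDs), Rprd1a, a regulator of RNA polymerase II (−4.19 SDs), Mbd2, which binds methylated DNA (−4.15 SDs), and Atg12, the ubiquitin-like protein of autophagosome formation (−4.14 SDs). With males left out in turn their limma adjusted p reached 0.395 for Mppe1, 0.591 for Fam210a, 0.418 for Rprd1a, 0.563 for Mbd2 and 0.501 for Atg12. The B6 males of Atg12, at 2.49 and 1.75 SDs, lay above all 54 other males (highest 1.66 SDs). Its B6-Chr18MSM males, at −2.45 and −1.59 SDs, lay within their range. Atg12 was not alone in this, as 8 of the 11 lower genes had both B6-Chr18MSM males beyond the 54 males.

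**Figure D1:**
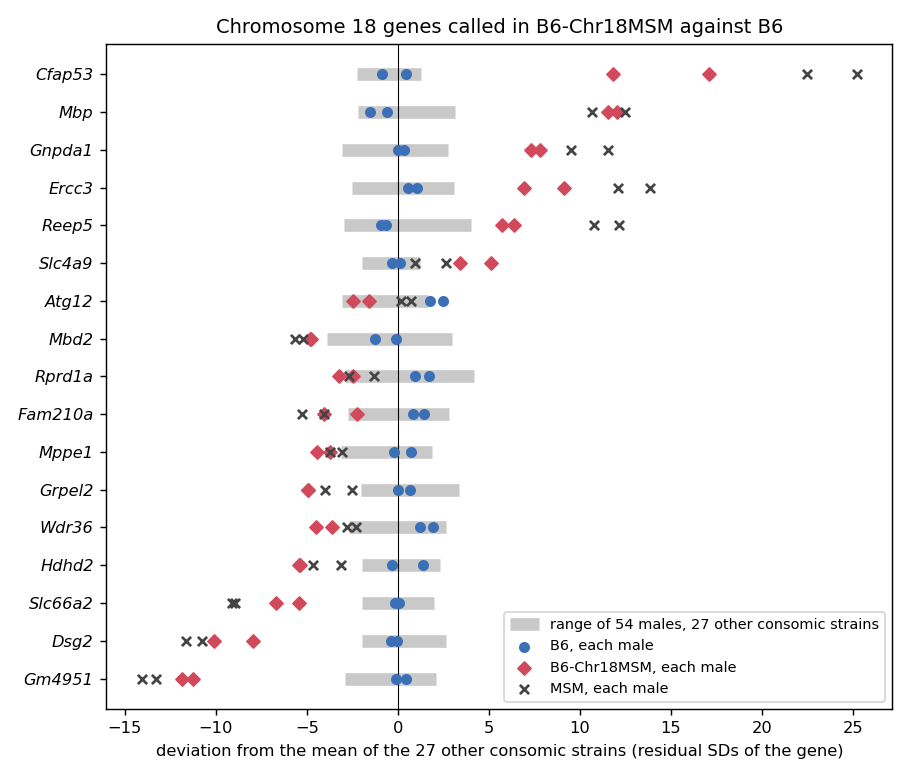
Each row is 1 of the 17 chromosome 18 genes called against B6, the horizontal axis is the deviation from the mean of the 27 other consomic strains in residual SDs of the gene, points are single males and grey bars span the 54 males of those strains. The B6-Chr18MSM males of Cfap53, at 11.8 and 17.1 SDs, lie far to the right of the grey bar, those of Gm4951, at −11.2 and −11.9 SDs, far to the left, and those of Atg12, at −2.45 and −1.59 SDs, within it.

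The second reference was the mean of the 28 strains without MSM chromosome 18, B6 being 1 of them. Against it 0.335% of all genes were called (40), 7.5% of those on chromosome 18 (21 genes, 9 higher and 12 lower) and 0.163% elsewhere (19 genes). The 21 included 15 of the 17 genes above, all in the same direction. Rprd1a (limma adjusted p = 0.066) and Atg12 (0.231) were the exceptions. The count on chromosome 18 was 11 without B6-Chr18MSM male 1 and 12 without male 2, and elsewhere limma called 0 (446 at an unadjusted p below 0.05) and 8. The 6 genes called against this reference alone, named after their values were seen, were Sil1 (an exchange factor of the chaperone BiP, −3.89 SDs), Tpgs2 (a tubulin polyglutamylase subunit, −3.50 SDs), Bin1 (a membrane-bending adaptor, −3.61 SDs), Isoc1 (3.81 SDs), Apbb3 (an adaptor that binds the amyloid precursor protein, 3.33 SDs) and Tmem241 (3.30 SDs). The reverse check, B6 against the 27 other consomic strains, called 0.00837% of genes (1 gene) and 0 on chromosome 18 by limma (20 at an unadjusted p below 0.05), and the 1 call was lost without either B6 male.

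**Figure D2:**
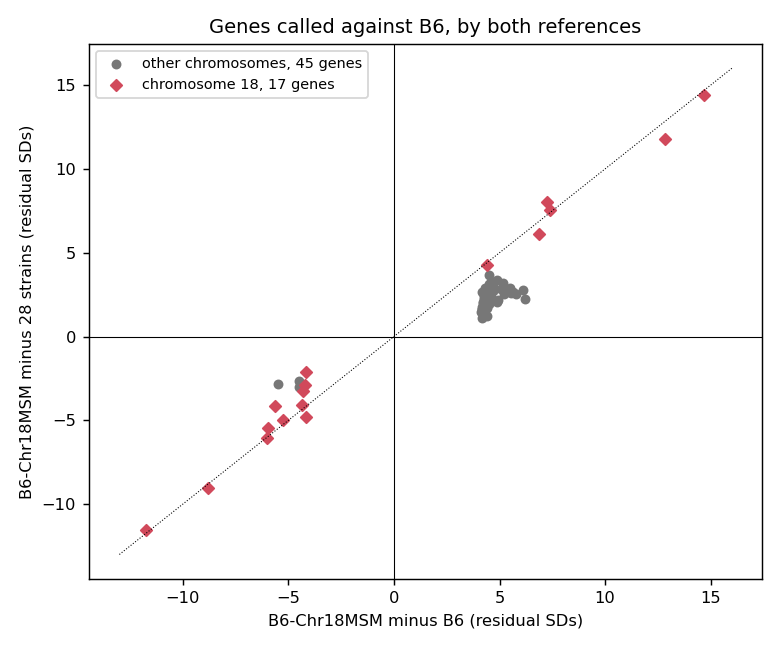
For the 62 genes called against B6, the horizontal axis is the difference of B6-Chr18MSM from B6 and the vertical axis its difference from the mean of the 28 strains, both in residual SDs, and the dotted line marks equal values. Because genes were chosen on the horizontal axis, the plot is a description: the difference from the 28 strains was smaller than that from B6 in 12 of the 17 chromosome 18 genes, with a median gap of 0.24 SDs (−0.78 for Ercc3 to 2.05 for Atg12), and in all 45 other genes, with a median gap of 2.23 SDs (0.81 for Msl2 to 3.98 for Hnrnpl).

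Every strain of the panel was read the same way. Against B6, the 27 other consomic strains had 0 to 3 called genes on chromosome 18 and 23 of them had 0, where B6-Chr18MSM had 17 and MSM 64. Away from chromosome 18 the same strains had 0 to 169 called genes with a median of 31, and B6-Chr18MSM had 45. Those counts take in the MSM chromosome that each of them carries. Without the genes of that chromosome they had 0 to 94 with a median of 3, and 3 of the 27 had at least the 45 of B6-Chr18MSM. Each strain's calls share the B6 males. With each strain set against the other strains without MSM chromosome 18, 18 of the 27 had 0 calls on chromosome 18 and the highest count was 11 (B6-Chr9MSM, 3.93%), where B6-Chr18MSM had 21. Off chromosome 18 and their own chromosome they had 0 to 605 by this reference with a median of 8, and 10 of the 27 had at least the 19 of B6-Chr18MSM. Over the 280 chromosome 18 genes, the deviations of the 2 B6-Chr18MSM males correlated at r = 0.857, and each of them with each MSM male at 0.657 to 0.814. The 27 other pairs of males of 1 strain had a median r of 0.109 and a highest of 0.551, and the B6 pair 0.508. Over the 11669 other genes the B6-Chr18MSM pair was at 0.380, and its correlation with the MSM males was between −0.151 and −0.0125. These correlations are across genes, which are not independent replicates, and describe the arrays only.

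**Figure D3:**
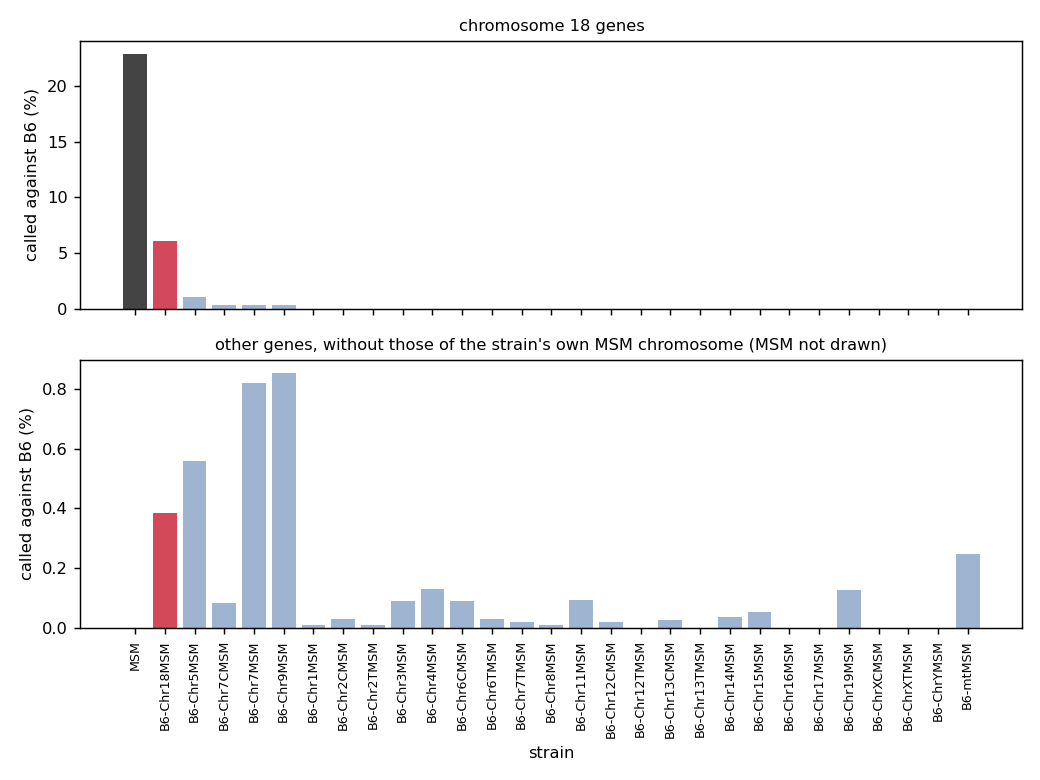
Bars give the percentage of the 280 tested chromosome 18 genes (upper panel) and of the genes neither there nor on the strain's own MSM chromosome (lower panel) called against B6 in each of the 29 other strains, with MSM (24.8%) not drawn in the lower panel. B6-Chr18MSM, at 6.07%, exceeds every other consomic strain on chromosome 18 (highest 1.07%), while for the other genes it stands at 0.386%, below 3 of them (highest 0.854%).

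The donor strain was compared over males that the B6 comparison does not use: MSM minus the 27 other consomic strains. This called 42.7% of all genes and 43.6% of the chromosome 18 genes (122, of which 68 higher and 54 lower in MSM). The count on chromosome 18 was about doubled by other scalings, to 247 with quantile normalization and 249 with median centring, where 59.5% and 58.2% of the genes lay on the same side in B6-Chr18MSM. Genes elsewhere were not counted under these scalings. Of the 17 genes called in B6-Chr18MSM, 16 were called in MSM in the same direction. Atg12 was not (0.45 SDs, limma adjusted p = 0.634). Of the 122 genes, 83 (68.0%) lay on the same side in B6-Chr18MSM minus B6, and the median gene showed 35.2% of the MSM difference. Of the 4978 genes called in MSM elsewhere, 43.5% lay on the same side, with a median of −5.05%. Across the 122 genes the differences in SEs correlated at Pearson r = 0.80 and Spearman rho = 0.59, and across the 4978 at r = −0.09. Both differences of a gene share its probe set and its residual SD. Of the genes lower in MSM 45 of 54 (83.3%) lay on the same side, where 60% of all chromosome 18 genes were lower in B6-Chr18MSM than in B6, and the median was 75.4% of the MSM difference. Of those higher in MSM 38 of 68 (55.9%) did, where 40.0% of all were higher, with a median of 16.4%.

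The size of the MSM difference separated the genes further. On chromosome 18, 13 genes differed by over 5 SDs in MSM and all 13 lay on the same side in B6-Chr18MSM, against 47.8% of 605 such genes elsewhere. Elp2, a subunit of the Elongator complex that modifies transfer RNA, was the 1 of them with almost none of the difference: its MSM males were at −5.60 and −8.84 SDs, its B6-Chr18MSM males at 0.67 and 0.05 SDs and its B6 males at 0.79 and 0.51 SDs. Its consomic difference from B6 was 4.07% of the MSM difference, and MSM lay 7.58 SEs below B6-Chr18MSM (limma adjusted p = 9.02e-07). Tmem241, Mpp7, a scaffold of cell polarity, and Apbb3 had 28.2%, 43.7% and 46.0% of their MSM differences. The B6 males of Tmem241, at 2.97 and 0.89 SDs, overlapped its B6-Chr18MSM males, at 1.92 and 4.81 SDs.

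MSM was also set directly against B6-Chr18MSM, 2 strains with the same chromosome 18 by label. This called 29.2% of all genes, 18.6% of the chromosome 18 genes (52, of which 35 higher in MSM, and 7.14% without B6-Chr18MSM male 1) and 29.4% of the others (3435). Quantile normalization raised the chromosome 18 share to 85.0% and median centring to 83.9%. The share of the other genes was not counted under these scalings, so the rise is not read as particular to chromosome 18. Of the 17 genes, 5 differed: Cfap53, Reep5, Ercc3 and Gnpda1 were higher still in MSM and Slc66a2 lower still, and their consomic differences were 55.8% to 70.1% of the MSM difference. For Mbp (111%), Gm4951 (85.8%) and Dsg2 (78.7%) no difference between MSM and B6-Chr18MSM was called (limma adjusted p = 0.894, 0.112 and 0.102). Some chromosome 18 genes lay on opposite sides. Bin1 was at −2.75 and −4.57 SDs in B6-Chr18MSM and 2.69 and 2.38 SDs in MSM, a gap of 6.198 SEs (limma adjusted p = 2.12e-05). Lipg, an endothelial lipase of high-density lipoprotein, was at −1.61 and −1.31 SDs in B6-Chr18MSM and 1.28 and 3.49 SDs in MSM (limma adjusted p = 0.00452 between them), and its difference from B6 was not called (0.387).

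**Figure D4:**
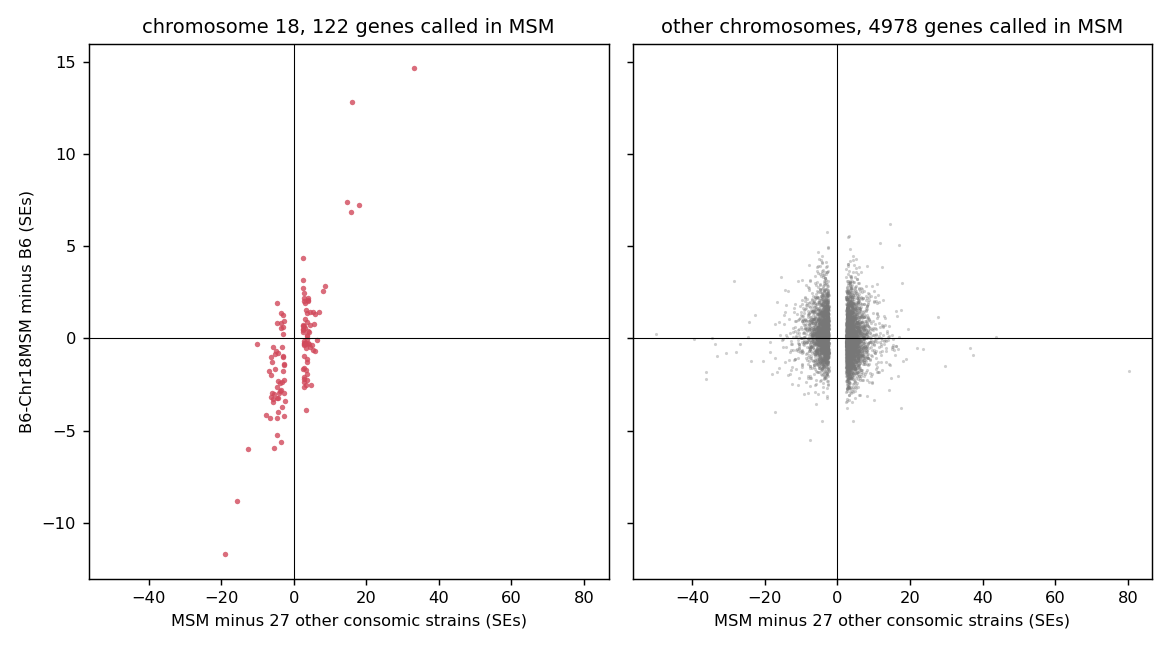
Each point is a gene called in MSM against the 27 other consomic strains, with that difference in SEs on the horizontal axis and B6-Chr18MSM minus B6 in SEs on the vertical axis, for chromosome 18 (left, 122 genes) and for other chromosomes (right, 4978 genes). The chromosome 18 genes spread from lower left to upper right with Gm4951 and Cfap53 at the ends, and the others spread around 0 on the vertical axis.

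The called genes were scattered along the chromosome. In gene order they ran from position 43 of 280 (Dsg2) to position 271 (Mbp), and no 2 of them were neighbours. The closest were Ercc3 and Wdr36, 3 genes apart and opposite in direction. Of the first 93 tested genes (Crem to Hspa9) 5 were called, of the next 93 (Ctnna1 to Tcof1) 4, and of the last 94 (Arsi to Tmx3) 8. The share of the genes called in MSM that lay on the same side was 76.2%, 64.9% and 62.8% in these 3 stretches.

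**Figure D5:**
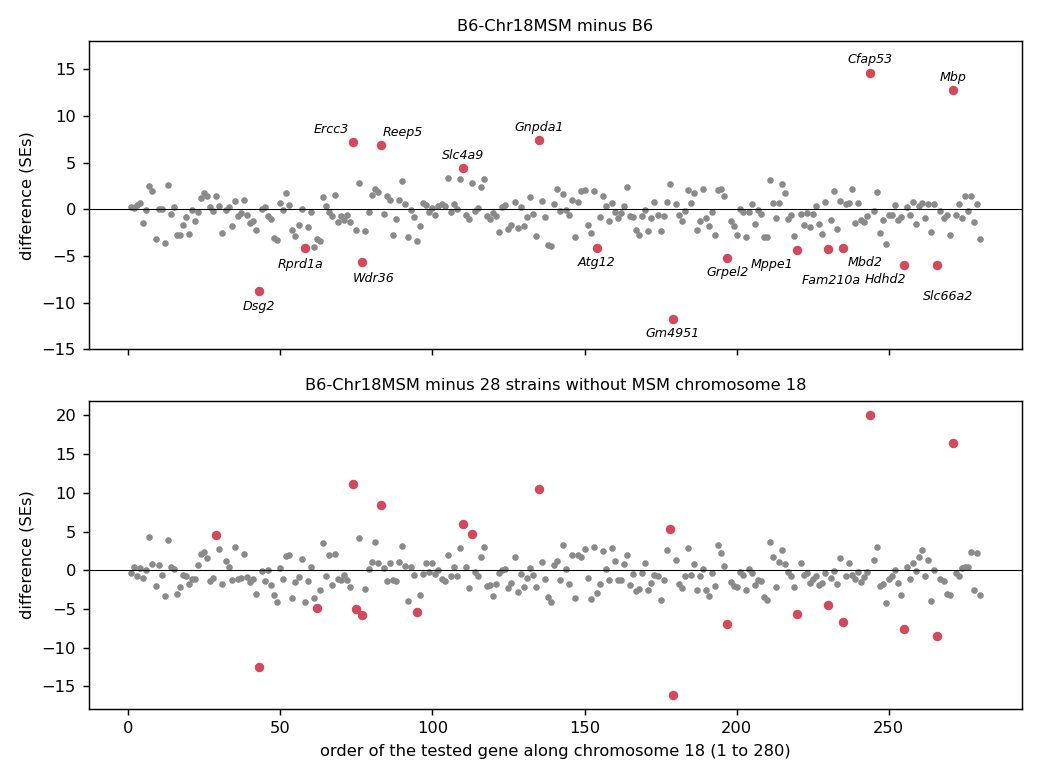
The 280 tested genes stand in chromosomal order on the horizontal axis, with the difference in SEs on the vertical axis, against B6 (upper panel) and against the 28 strains (lower panel), and called genes are red. Red points lie above and below 0 in the upper panel from Dsg2 at position 43 to Mbp at position 271.

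The probe set that stands for a gene mattered on this chromosome. Among the 17 called genes 10 had further tested probe sets, 19 in all: 16 went in the same direction, 7 of them called, and 3 went the opposite way, none called against B6. Dsg2 had 2 further called probe sets (−8.43 and −4.42 SEs) and 2 not called (−2.76 and −0.51 SEs). Mbp had 1 more called (8.96 SEs) and 1 at −0.83 SEs. Reep5 had 1 more called (6.45 SEs) and 1 at 0.40 SEs, and Slc66a2 1 more called (−5.19 SEs) and 1 at 0.88 SEs. Fam210a had 2 more called lower (−8.38 and −4.35 SEs) and 1 at 3.93 SEs the other way, which was called higher against the 28 strains (6.24 SEs, limma adjusted p = 0.000469). With each of 22551 probe sets fitted apart, an alternative chosen after seeing the data, 36 of 494 probe sets with a chromosome 18 symbol were called (7.29%, 29 genes), 10 genes higher and 19 lower, against 0.296% of those elsewhere. In it the brightest probe sets of Atg12 and Mbd2 lost their calls (limma adjusted p = 0.0517 for both).

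This fit brought in 14 genes through a probe set other than the brightest, named after their values were seen. Ttr was the clearest case: a second probe set fell by 17.1 SEs (−0.00198 ± 0.000116 on the deposited scale, limma adjusted p = 7.55e-13), while the brighter one differed by 0.06 SDs (adjusted p = 0.997). Riok3, a kinase of ribosome maturation, had a probe set at −14.1 SEs and the brighter one at 0.34 SEs. Gramd3, a lipid-binding protein of membrane contact sites, had one at −11.9 SEs, and Fech one at −8.16 SEs beside −2.98 SEs for the brighter. Smad4, the common partner of the receptor SMADs, had −5.47 SEs beside 2.20 SEs. The others were Zfp397 (6.27 SEs), Dym (−6.19), Fgf1 (−5.37), Bvht (4.96), Txnl4a (−4.73), Zeb1 (−4.55), Isoc1 (4.50), the cholesterol carrier Stard4 (−4.34) and Svil (4.21). Where probe sets of 1 gene disagree, the level of its transcript is uncertain. Whether MSM bases under the probes take part in these differences was not tested.

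Groups of chromosome 18 genes were read by their role, from lists drawn up with earlier results of these data known, beside a median of 0.06 SDs and 52.2% positive differences over all tested genes and the −0.40 SDs, 40.0% positive and 6.07% called of the chromosome itself. The called share of the 8 lists ran from 0 to 12.5%, 1 to 3 genes in the 7 lists with any. Lists were read by the brightest probe set of each gene, and several members had another probe set called, as given above. Of 25 genes listed under lipid, heme and amino acid metabolism, 1 rose (Gnpda1) and 2 fell (Hdhd2 and Slc66a2), with a median of −0.19 SDs. By the roles given above, Gnpda1 acts on a sugar phosphate, and Hdhd2 and Slc66a2 are known here by protein family only. The calls of this list are therefore not read as a change in lipid, heme or amino acid metabolism. Atp8b1 (3.16 SDs, limma adjusted p = 0.194), Fech (−2.98 SDs, 0.239), Aldh7a1, a lysine-degrading dehydrogenase (−2.30 SDs, 0.459), and Npc1 (−0.10 SDs, 0.995) did not pass. In the fit of single probe sets, other probe sets of Fech (−8.16 SEs) and Ttr (−17.1 SEs) were called lower, and another of Isoc1 higher (4.50 SEs). Of 13 genes of mitochondrial proteins, 1 fell (Grpel2) and 0 rose, with a median of −0.69 SDs. Of 16 genes of innate immunity and macrophages, 1 fell (Gm4951), and Csf1r, the receptor of macrophage growth factor, was at −1.78 SDs (limma adjusted p = 0.648) and Cd14, the lipopolysaccharide co-receptor, at 2.34 SDs (0.441).

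Of 17 genes of SMAD and growth factor signalling, limma called 0 by the brightest probe set (4 at an unadjusted p below 0.05). Over the tested genes of the chromosome these shares were 6.07% and 28.9%. Nearest to the threshold was Fgf1, a fibroblast growth factor, at −3.92 SDs (limma adjusted p = 0.0687). Smad4, Smad2 and Smad7 were at 2.20, −1.18 and −0.65 SDs. In the fit of single probe sets, another probe set was called lower for Fgf1 (−5.37 SEs) and for Smad4 (−5.47 SEs). Of 23 transcriptional regulators 1 fell (Mbd2), and Nr3c1 was at 0.59 SDs (limma adjusted p = 0.953). Of 8 cadherins and protocadherins 1 fell (Dsg2), 1 had a positive difference and the median was −1.49 SDs. Of 25 genes of RNA processing and translation 1 fell (Wdr36), and of 18 genes of ubiquitin, proteasome and autophagy 1 fell (Atg12).

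Away from chromosome 18, 41 genes were higher and 4 lower in B6-Chr18MSM than in B6, spread over 15 chromosomes. Fewer of these calls held in other fits than on chromosome 18. The median difference was 4.50 SDs, 5 of the 45 were called against the second reference, and in 4 both males lay beyond the 54 other males. None of the 45 was called in all 4 fits that left out 1 male: the count was 4 and 6 with B6 male 1 or 2 left out, 1 with B6-Chr18MSM male 1 left out and 18 with male 2 left out. With the first array of each male limma called 0 (536 at an unadjusted p below 0.05). The 5 genes called by both references were all higher. Acsf2, an acyl-CoA synthetase, stood at −2.83 and −1.31 SDs in B6, 4.19 and 2.03 SDs in B6-Chr18MSM and 8.97 and 8.05 SDs in MSM, and rose by 0.000993 ± 0.000192 (limma adjusted p = 0.00803, and 0.347 without B6-Chr18MSM male 1).

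Acads, the short-chain acyl-CoA dehydrogenase of mitochondrial fatty acid oxidation, stood at −0.21 and −2.61 SDs in B6 and 2.59 and 3.57 SDs in B6-Chr18MSM. Its rise of 4.49 SDs (limma adjusted p = 0.0306) had an adjusted p of 0.537 without B6 male 2. Msl2, a ubiquitin ligase of chromatin, stood at −1.29 and −0.40 SDs in B6 and 3.67 and 3.64 SDs in B6-Chr18MSM (limma adjusted p = 0.0306, up to 0.432 with a male left out). Ppp2r3d, a regulatory subunit of protein phosphatase 2A (4.88 SDs, limma adjusted p = 0.0161, up to 0.297), and Hmg20b, a partner of the CoREST repressor (4.57 SDs, 0.0306, up to 0.323), completed the group. In Acads, Msl2, Ppp2r3d and Hmg20b the MSM males lay below the consomic males. The other 3 genes beyond all 54 males, named after their values were seen, were Kdelr1, the receptor that returns chaperones to the endoplasmic reticulum (5.19 SDs), Ergic1, of the compartment between that organelle and the Golgi (5.50 SDs), and Vapb, which tethers its membrane to others (4.39 SDs). The B6 males were low in all 3, at −1.97 to −3.59 SDs, and none passed against the 28 strains (limma adjusted p = 0.12, 0.0668 and 0.377).

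Lists of genes across the genome held 1 called member in all. Over all tested genes 0.519% were called and 9.12% had an unadjusted p below 0.05. At that share a short list may hold no call, so 0 calls are not read as no change. Cp, which encodes the plasma copper protein ceruloplasmin and stands in a list of 27 acute phase genes, was at −3.11 and −3.25 SDs in B6, 1.71 and 0.24 SDs in B6-Chr18MSM and −2.26 and −2.20 SDs in MSM. It rose by 0.00239 ± 0.000574 (limma adjusted p = 0.0488, and 0.0972 to 0.591 with a male left out), and against the 28 strains the limma adjusted p was 0.64. Markers of hepatocytes (12 genes), Kupffer cells (16), endothelium (14), stellate cells (14), bile duct cells (4), lymphocytes (7), erythroid cells (5), neutrophils (3), muscle (3), fat cells (4) and pancreas (6) gave limma 0 called members, with 1 lymphocyte, 1 pancreas and 2 hepatocyte genes at an unadjusted p below 0.05.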

How the data were processed

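Livers of 60 males of 30 strains were measured on 120 arrays. Values are the deposited log2 signals per probe set. Log base 2 fits their range. For summary method and normalization, the sources used here give nothing. Of 45037 probe sets, 34741 carried 1 symbol that matched a gene of the GRCm38.p6 RefSeq table, which gave chromosomes and gene order. The build behind the files is not named, so no coordinates or sequences are printed. The brightest probe set stood for a gene, and genes needed 2 males above the median of all values. After averaging both arrays of each male, limma 3.58.1 (R 4.3.3) fitted 1 mean per strain, with 30 residual degrees of freedom. The labels give no batch. The number of arrays limits the precision. The steps were tested on simulated data.

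Genes called against both references were named, the 12 largest higher and 12 largest lower on chromosome 18 and the 8 and 8 largest elsewhere, with up to 5 called members of each list. Genes called against B6 alone and chromosome 18 list members with a known role were also described. Members and lists were chosen with earlier results of these data known.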

Additional observations from a re-analysis of the deposited data

Results flagged for a closer look

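MSM differed from B6-Chr18MSM, by limma in the same fit, in 5 of the 17 called chromosome 18 genes and in 7 of 8 named genes elsewhere. Over all tested genes the share was 29.2%, with 18.6% on chromosome 18 and 29.4% elsewhere. The genes were named by the values of the same B6-Chr18MSM males, which favours a gap to MSM, so these counts are a description only. The gap between the effects of both strains, in SEs, was 9.40 for Cfap53, 5.38 for Reep5, 4.93 for Ercc3, 2.996 for Gnpda1 and −2.97 for Slc66a2, all with the MSM males farther from B6 than the consomic males. Elsewhere it was 5.402 for Acsf2, with MSM again farther from B6. It was −5.29 for Ppp2r3d, −4.22 for Hmg20b, −4.07 for Kdelr1, −3.35 for Vapb, −3.29 for Acads and −3.06 for Msl2, with the consomic males above MSM. The adjusted p of these 12 gaps ran from 1.72e-08 (Cfap53) to 0.0250 (Slc66a2).

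Among 3122 tested probe sets that carry no single gene symbol, which no comparison of genes used, 12 were called in B6-Chr18MSM against B6 (limma, adjusted over 22551 probe sets). This is 0.384%, below the 0.461% of all tested probe sets (104). Of the 12, 8 were higher and 4 lower, and 8 were also called against the 28 strains. Their chromosome is not given in the sources used here. Outlying males were not tested, since each strain holds 2 males.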

How the results depend on the processing

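Each choice was changed alone for B6-Chr18MSM against B6 (6 chromosome 18 genes higher and 11 lower, 41 and 4 elsewhere). The percentage called was higher on chromosome 18 than elsewhere in 15 of 16 settings, the exception being the fit of B6 and B6-Chr18MSM alone (0 and 0 on chromosome 18, with 71 at an unadjusted p below 0.05, and 1 and 1 elsewhere). Quantile normalization gave 3 higher and 4 lower on chromosome 18 and 6 and 1 elsewhere, and centring each array on its median 5 and 5, and 15 and 1. These 2 scalings also moved the calls against the 28 strains to 10 on chromosome 18 and 5 elsewhere with quantiles and to 4 elsewhere with centring. They raised the chromosome 18 calls of MSM from 122 to 247 and 249, and the called share of chromosome 18 genes between MSM and B6-Chr18MSM from 18.6% to 85.0% and 83.9%. For both MSM comparisons genes elsewhere were not counted in these settings. The calls of B6 against 27 strains rose from 1 to 6 and 2. The array medians ran from 7.41583 to 7.4168, a range above the median residual SD of 5.95e-05. With the first array of each male there were 3 lower on chromosome 18, 0 and 0 elsewhere (limma, 536 at an unadjusted p below 0.05), 6 elsewhere against the 28 strains, 8.21% between MSM and B6-Chr18MSM and 0 for B6 (300 unadjusted). With 120 arrays and the male as a random block there were 20 lower elsewhere, 36 and 88 against the 28 strains and 6 for B6. Without the filter there were 6 lower on chromosome 18, 24 higher elsewhere and 0 for B6 (1258 unadjusted). With the filter at the 75th percentile, 13 chromosome 18 genes were called against the 28 strains, 80 in MSM and 14.04% between MSM and B6-Chr18MSM. The probe set with the largest SD gave 35 and 33 against the 28 strains and 2 for B6, and the mean of probe sets 33 elsewhere against the 28 strains and 2 lower elsewhere against B6. The 28 strains as the reference gave 18 higher and 1 lower elsewhere, and every probe set fitted apart, added after seeing the data, 10 higher and 19 lower on chromosome 18 and 8 lower elsewhere. Leaving out 1 male gave 5 higher and 4 lower on chromosome 18 in each fit, 1 to 15 and 0 to 3 elsewhere, 11 to 21 and 0 to 19 against the 28 strains, 7.14% to 17.9% between MSM and B6-Chr18MSM, 120 to 122 for MSM and 0 to 1 for B6. The lone male is assumed to vary like the others. The share of MSM-called genes on the same side stayed within 58.2% and 76.2%.

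Cfap53, Gm4951, Dsg2 and Reep5 were called in 15 of 16 settings. Fam210a reversed with the probe set of largest SD (0.00519) and with the mean of probe sets (9.51e-06), Wdr36 (7.64e-05) and Kdelr1 (−1.55e-05) with quantile normalization. Apart from the scalings and probe set rules, the cause of these changes was not tested. No paired analysis was possible because the strains share no replicate numbers. No detection calls were used, so signal over background is unknown.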

Other observations

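Nr3c1, the glucocorticoid receptor, lies on chromosome 18, so genes that respond to glucocorticoids and fasting were read across the genome. Of 22 such genes limma called 0, with 1 at an unadjusted p below 0.05. Over all tested genes these shares were 0.519% and 9.12%. Of the 22 genes 19 had a negative difference from B6 and the median was −1.15 SDs, beside 0.06 SDs over all genes. Nr3c1 itself was at 0.59 SDs (limma adjusted p = 0.953). MSM carries all MSM chromosomes and was read against another reference. Against the 27 other consomic strains 16 of the 22 were called higher in MSM and 1 lower (42.7% of all genes were called there). Between MSM and B6-Chr18MSM 16 differed, beside 29.2% of all genes. Whether Nr3c1 or another part of chromosome 18 takes part in these differences was not tested. In B6-Chr18MSM minus B6 the 3 lowest were Tat (−2.40 SDs), Fkbp5 (−1.88 SDs) and the kinase Sgk1 (−1.80 SDs). Their limma adjusted p were 0.415, 0.614 and 0.636. Tat is the tyrosine aminotransferase of gluconeogenesis and Fkbp5 a co-chaperone of the receptor. Of 20 circadian clock genes limma also called 0 (0 at an unadjusted p below 0.05), with a median of −1.07 SDs. Per3 (−1.91 SDs), Hlf (−1.88 SDs), Dbp (−1.67 SDs) and Tef (−1.38 SDs) were lowest. Of the 20 genes 7 were above 0, among them Arntl (0.63 SDs) and Clock (0.79 SDs). As none passed, these values are not read as a shift of the clock.

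Of 21 genes of bile acid synthesis and transport limma called 0 (4 at an unadjusted p below 0.05). Over all tested genes 0.519% were called and 9.12% had an unadjusted p below 0.05. At that share a list of this size may hold no call, so 0 calls are not read as no change. Cyp7a1, the rate-limiting enzyme of bile acid synthesis, was at −2.09 SDs (limma adjusted p = 0.521), the hepatic uptake carrier Slco1b2 at −2.36 SDs (0.437) and the conjugating enzyme Baat at −2.12 SDs (0.512). Atp8b1, the only member on chromosome 18, was at 3.16 SDs (0.194). All these lists were read by the brightest probe set of each gene. In the fit of single probe sets, another probe set of Fech (−8.16 SEs) and of Stard4 (−4.34 SEs) was called lower. Other lists of the genome gave limma 0 calls too: heme synthesis and iron (17 genes), cholesterol (23), fatty acid and triglyceride synthesis (21), fatty acid oxidation and PPARA targets (27), interferon response (30), TGF-beta and BMP targets (16), sex-biased genes (16), xenobiotic metabolism (39) and heat shock and endoplasmic reticulum stress (33), with 1, 0, 0, 0, 0, 0, 0, 3 and 4 members at an unadjusted p below 0.05.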
